A study of Mus musculus with 2 samples.

Results

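Notch signalling genes were examined in the developing mouse ureter: the receptors Notch1, Notch2 and Notch3, the ligands Jag1, Dll1 and Dll4, and the HEY/HES target genes Hey1, Hey2, Heyl and Hes1. These are 10 of the 21368 genes named on the array. All probes whose RefSeq accession belongs to 1 of them were taken, 12 of 39429 probes; Notch1 and Notch2 had 2 probes each (probe 1 is A_55_P2171897 for Notch1 and A_52_P289213 for Notch2) and the others 1 each. The samples were whole dissected ureters of NMRI mouse embryos at E14.5, a stage of embryonic development at which the ureter wall is differentiating. Those labelled Tbx2/Tbx3cDKO (cDKO below) were Tbx18(cre/+), with Tbx2(fl/fl) and also Tbx3(fl/fl): Cre recombinase from the Tbx18 locus deletes the floxed alleles of both T-box factors in the lineage of the ureteric mesenchyme. Controls were Tbx18(+/+), with Tbx2(fl/?) and Tbx3(fl/?): they carried no Cre and had both Tbx18 alleles intact, and for Tbx2 and Tbx3 the label specifies 1 allele only. All other cells of the ureter contributed RNA to the same samples, and which cells had recombined was not measured.

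Two-colour arrays were used, 1 with a female and 1 with a male pair of labelled cDKO and control RNA, so there were 2 RNAs of each genotype. The knockout RNA carried AlexaFluor647 in the female pair and AlexaFluor555 in the male pair, so the sex of a pair and its dye orientation cannot be told apart. The labels do not say how many embryos were pooled for an RNA. The p-values draw only on the spread between these 2 pairs, and mostly on that spread pooled over all probes tested. Of 25934 probes above the filter on dim probes, 480 rose and 498 fell in cDKO-labelled ureters (limma, adjusted p under 0.05). The Tbx3 probe was lower, with a log2 ratio of -1.09 ± 0.10 (SD, n = 2 pairs), but the Tbx2 probe was higher, at 0.86 ± 0.12. The Tbx2 value goes against the label, and the sources used here do not say whether either probe lies within the deleted exons. Each direction below is therefore that of the ureters labelled cDKO.

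In Notch signalling, ligands of the Jagged and Delta families on 1 cell bind Notch receptors on its neighbour. The receptor is cut by the gamma-secretase complex, and its intracellular part enters the nucleus and joins the DNA-binding protein RBPJ and Mastermind-like coactivators. This complex turns on genes of the HES and HEY families, which are transcriptional repressors of the basic helix-loop-helix class. In blood vessels the pathway acts both in arterial endothelium and in the mural cells, the smooth muscle cells and pericytes, around it.

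Of the 12 Notch probes, 2 rose and 0 fell in the ureters labelled cDKO, and 10 did not pass. Both that rose were HEY genes: Hey2 at 1.69-fold and Heyl at 1.50-fold. Over all probes tested, 3.77% passed, with 1.85% rising and 1.92% falling. The other HEY/HES genes, Hey1 and Hes1, were close to a ratio of 1 with opposite signs in the female and the male pair. All 3 ligand probes had positive ratios in both pairs, as 27.6% of all probes tested had, but none passed. No receptor probe passed. The log2 ratio had a median of 0.015 over the 12 Notch probes and of -0.0014 over all probes tested. All 12 probes were well above background in all 4 spots of all 4 RNAs, so each had a measured level on both sides.

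**Figure D1:**
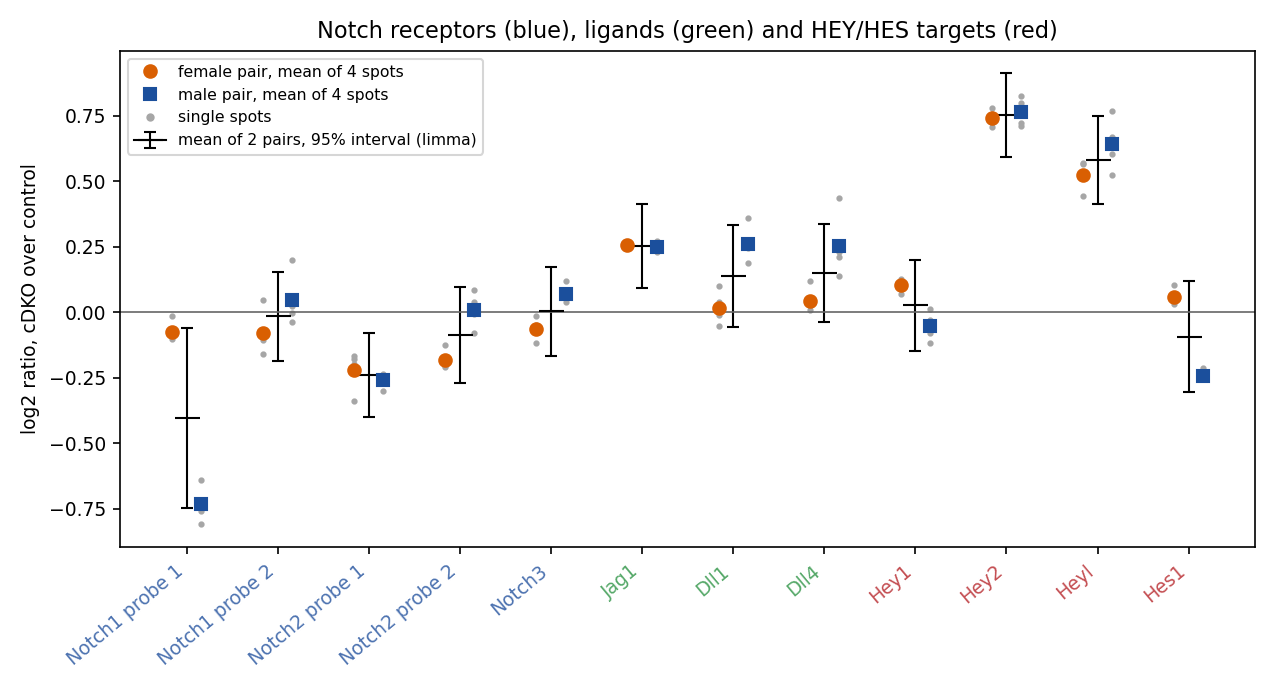
Log2 ratios of labelled cDKO over control (y axis) for the 12 Notch probes (x axis). Circles are the female pair and squares the male pair, each the mean of 4 spots (grey dots); black bars are the mean of both pairs with its 95% interval from limma. Every spot of Hey2 and Heyl lies above 0.44 in both pairs.

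The ligand Jag1 is a membrane protein of the Jagged family that activates Notch receptors on neighbouring cells. Its normalized log2 intensity was 12.18 in the female and 12.27 in the male labelled cDKO RNA, against 11.93 and 12.02 in the control RNAs. Both labelled cDKO RNAs were above both control RNAs. The log2 ratio was 0.26 in the female pair, with 0.25 in the male one, and the 4 spots of the probe lay between 0.25 and 0.27 in the female and between 0.23 and 0.27 in the male pair. The mean was 0.25 ± 0.0037 (SD, n = 2 pairs), a 1.19-fold difference with a 95% interval of 0.095 to 0.41 on the log2 scale, and it did not pass over all probes tested (adjusted p = 0.119).

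Both Delta ligands leaned on the male pair. Dll1, whose protein is a Delta ligand of many progenitor tissues including the early nephron, had log2 intensities of 9.60 and 9.66 in the female and male labelled cDKO RNAs, against 9.58 and 9.39 in control RNAs. Dll4, the Delta ligand of arterial and sprouting endothelium, had 9.45 and 9.58 in labelled cDKO RNAs, against 9.41 and 9.33 in control RNAs. For both genes the labelled cDKO RNAs were above the control RNAs, but nearly all of the difference was in the male pair. The log2 ratio of Dll1 was 0.018 in the female pair, with 0.26 in the male one, and that of Dll4 was 0.045 and 0.25. The means of 0.14 ± 0.17 for Dll1 and 0.15 ± 0.15 for Dll4 (SD, n = 2 pairs) were about as large as their spread, and neither passed (adjusted p = 0.579 and 0.508).

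Notch1 and Notch2 are receptors with broad expression, and Notch3 is the receptor best known from vascular mural cells. Notch2 probe 1 had log2 intensities of 13.02 and 12.94 in the female and male labelled cDKO RNAs, against 13.24 and 13.19 in control RNAs. Both labelled cDKO RNAs were below both control RNAs, by a log2 ratio of -0.22 in the female pair, with -0.26 in the male one. The mean was -0.24 ± 0.025 (SD, n = 2 pairs), with a 95% interval from -0.40 to -0.079, and it did not pass (adjusted p = 0.145). Notch2 probe 2 had 7.38 in both labelled cDKO RNAs, against 7.56 in the female and 7.37 in the male control RNA, a ratio of -0.18 in the female pair, with 0.0093 in the male one. The probes of Notch2 thus differed in the male pair. Probe 2 was far dimmer than probe 1. Its mean log2 ratio of -0.087 became -0.17 with the scanner software's processed signals, and it passed with neither.

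The probes of Notch1 differed further. Probe 1 had log2 intensities of 9.96 and 9.83 in the female and male labelled cDKO RNAs, against 10.04 and 10.56 in control RNAs. The male control RNA stood above the other 3. The log2 ratio was -0.075 in the female pair, with -0.73 in the male one and the 4 spots of the male pair between -0.81 and -0.64. The mean of -0.40 ± 0.47 (SD, n = 2 pairs) did not pass (adjusted p = 0.263). Notch1 probe 2 had 8.18 and 8.23 in labelled cDKO RNAs, against 8.25 and 8.19 in control RNAs, with a mean log2 ratio of -0.016 ± 0.087. The lower mean of Notch1 rests on 1 probe in 1 pair, and with both probes averaged it was -0.21 (adjusted p = 0.325). The sources used here do not say which part of the transcript each probe covers.

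Notch3 had log2 intensities of 13.43 and 13.23 in the female and male labelled cDKO RNAs, against 13.49 and 13.16 in control RNAs. The groups overlapped. Its log2 ratio was -0.064 in the female pair, with 0.070 in the male one, and its mean of 0.0032 ± 0.095 (SD, n = 2 pairs) had a 95% interval from -0.17 to 0.17. Of the 5 receptor probes, 0 passed in limma and 2, probe 1 of Notch1 and probe 1 of Notch2, had an unadjusted p under 0.05, as 13.8% of all probes tested had.

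**Figure D2:**
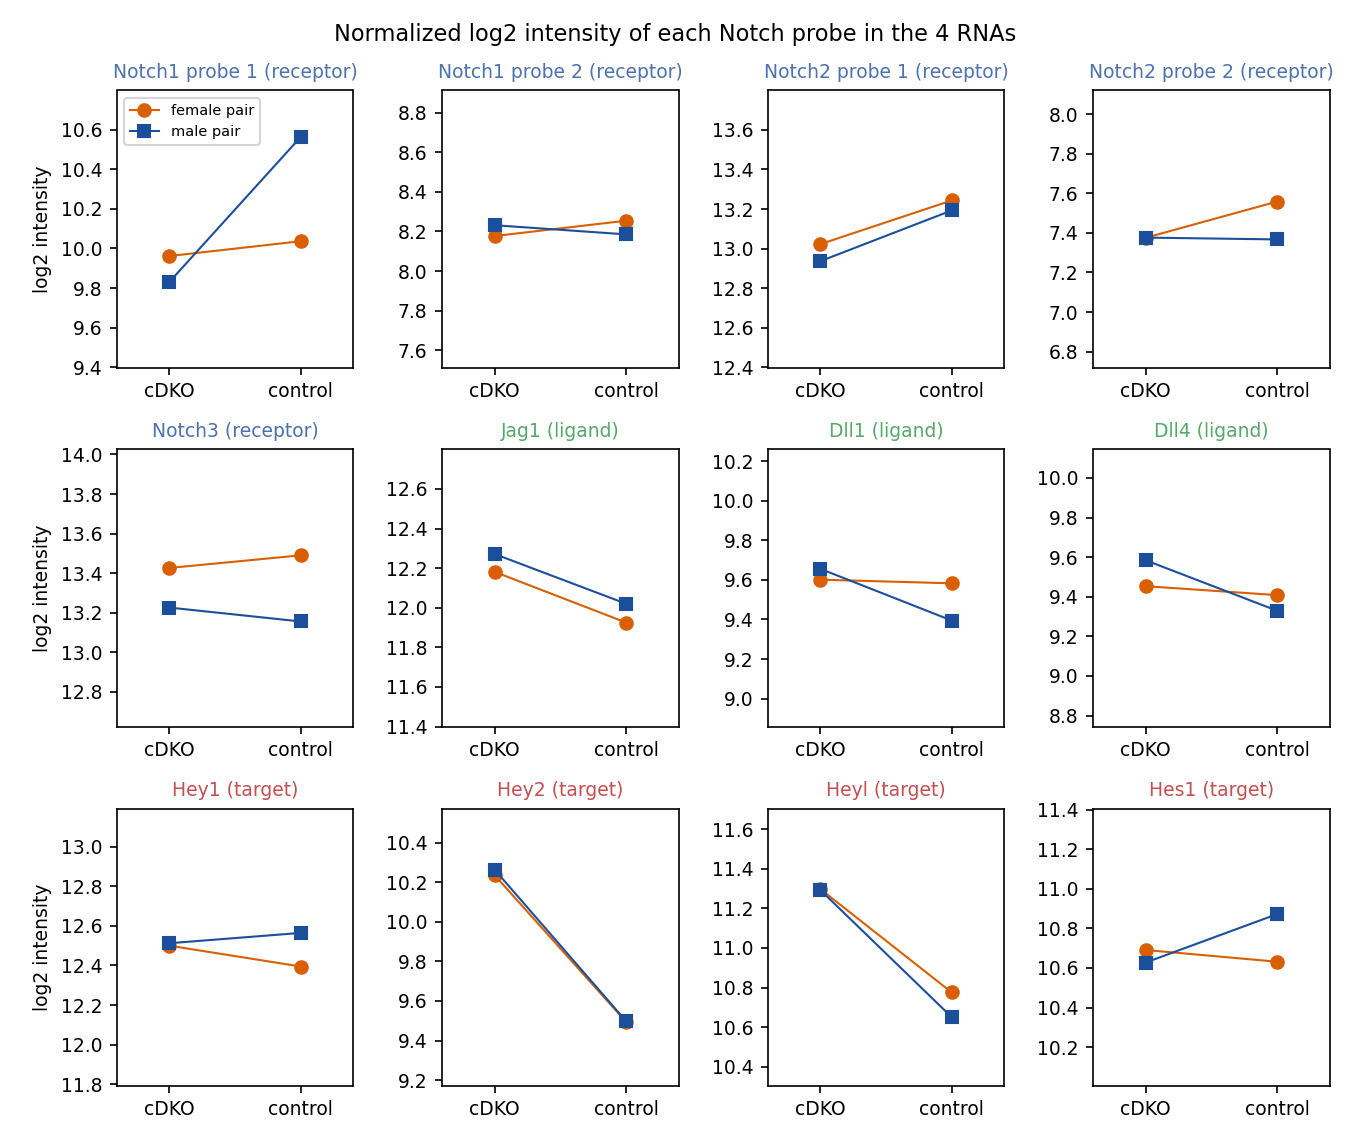
Normalized log2 intensity (y axis, the same span of log2 units in each panel) of the 12 Notch probes in labelled cDKO (left) and control RNAs (right). Lines join the RNAs of 1 pair, circles for female and squares for male. The lines of Hey2, Jag1 and Notch2 probe 1 run nearly in parallel in both pairs. Those of Heyl slope the same way but lie further apart in the control RNAs. Those of Hey1, Hes1 and Notch3 cross or oppose each other.

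Hey2, a HEY repressor known from arterial endothelium and the heart ventricle, had the largest rise of the 12 probes. Its log2 intensity was 10.23 in the female and 10.26 in the male labelled cDKO RNA, against 9.49 and 9.50 in the control RNAs. The RNAs of 1 genotype lay close together and the genotypes did not overlap. The log2 ratio was 0.74 in the female pair, with 0.76 in the male one, and all 8 spots lay between 0.71 and 0.83. The mean was 0.75 ± 0.017 (SD, n = 2 pairs), with a 95% interval from 0.59 to 0.91 and an adjusted p of 0.00213. By size of the rise it ranked 86 among 25934 probes tested.

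The promoter of Hey2 is shown because it belongs to the probe with the largest rise and holds the letters that the RBPJ complex recognises. It runs from 250 bases before to 50 bases after the transcription start, from RefSeq on build GRCm38.p6 (chr10:30842734-30843033, minus strand). Capitals mark matches to TGGGAA, the core of the RBPJ site, or to its reverse complement TTCCCA.
Hey2: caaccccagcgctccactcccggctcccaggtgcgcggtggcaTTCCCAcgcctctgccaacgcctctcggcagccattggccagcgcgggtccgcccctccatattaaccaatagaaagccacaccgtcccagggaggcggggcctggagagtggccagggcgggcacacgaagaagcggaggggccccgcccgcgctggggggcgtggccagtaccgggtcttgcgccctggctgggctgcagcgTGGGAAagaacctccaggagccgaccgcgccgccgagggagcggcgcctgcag
Counted from +1 at the start, with no 0, a match on the opposite strand begins at -207 and a match on the same strand at -3. Of all 32851 promoters of this table, 25.6% held 1 or more matches and 3.79% held 2 or more. RefSeq promoters were found for 7 of the 10 genes, 8 in all since Dll1 has 2, and that of Hey2 was the only 1 of the 8 with a match. On both strands, 0 of the 8 held GGTGTGA, a T-box binding site core found in 3.98% of all promoters, or CACGTG, an E-box that HEY proteins bind, found in 7.15%. These are matches of letters, and binding was not measured. Hey1, Heyl and Hes1 had no promoter in the table.

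Heyl is a HEY gene known from vascular smooth muscle and pericytes. Its log2 intensity was 11.30 and 11.29 in the female and male labelled cDKO RNAs, against 10.78 and 10.65 in control RNAs. Here too the genotypes did not overlap. The log2 ratio was 0.52 in the female pair, with 0.64 in the male one and spots between 0.44 and 0.77. The mean was 0.58 ± 0.085 (SD, n = 2 pairs), with a 95% interval from 0.41 to 0.75, an adjusted p of 0.00775 and rank 167 among the rises. The call ended with the authors' deposited table, where the mean log2 ratio was 0.64 and the adjusted p 0.0565.

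Hey1, the third HEY gene, had log2 intensities of 12.50 and 12.51 in the female and male labelled cDKO RNAs, against 12.39 and 12.56 in control RNAs. The labelled cDKO values lay between the control values. Its log2 ratio was 0.11 in the female pair, with -0.052 in the male one and a mean of 0.027 ± 0.11 (SD, n = 2 pairs) and a 95% interval from -0.15 to 0.20. Hes1, a HES repressor that Notch induces in many tissues, had 10.69 and 10.63 in labelled cDKO RNAs, against 10.63 and 10.87 in control RNAs. The male control RNA was the highest of the 4, as for Notch1 probe 1. The log2 ratio of Hes1 was 0.059 in the female pair, with -0.24 in the male one and a mean of -0.093 ± 0.21 and a 95% interval from -0.31 to 0.12.

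The target genes therefore had unequal ratios on the same arrays. The log2 ratio of Hey2 exceeded that of Hey1 by 0.64 in the female pair, with 0.82 in the male one, and that of Heyl exceeded Hey1 by 0.42 and 0.69. Against Hes1 the excess was 0.68 and 1.01 for Hey2, and 0.46 and 0.89 for Heyl. Hey2 exceeded Heyl by 0.22 and 0.12. These differences between genes were not tested.

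Members can also be read against the overlap of the RNAs. Of the 12 probes, 5 (Jag1, Dll1, Dll4, Hey2 and Heyl) had both labelled cDKO RNAs above both control RNAs, and 2 (probe 1 of Notch1 and of Notch2) had both below. Over all probes tested, 17.6% were in the first state and 17.6% in the second, so either state was common. By the same reading 5 of 12 Notch probes had opposite signs in the 2 pairs, against 44.5% of all probes tested.

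The rest of the pathway was given by 6 lists of 58 genes, of which 57 had a probe and 54 were tested. In limma 0 rose and 0 fell, where 3.77% of all probes tested passed. An unadjusted p under 0.05 was found for 9 of the 54, against 13.8% of all probes tested. The median log2 ratio of the 54 was 0.0091. In both pairs 14 were positive and 16 negative, and 27.6% of all probes tested were positive in both. Among other receptors and ligands, Dner, a neuronal Notch ligand, had 0.28 ± 0.017 (SD, n = 2 pairs, adjusted p = 0.0857), and Dlk1, a Delta-like inhibitor, had 0.28 ± 0.45. In the modification and uptake of receptors and ligands, the ubiquitin ligase Neurl1b had -0.20 ± 0.067 and Mfng, a fringe glycosyltransferase, had 0.17 ± 0.029.

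Genes that release and use the Notch intracellular domain also gave small values. Among the proteases, the gamma-secretase subunits Aph1b and Psen2 had mean log2 ratios of 0.21 ± 0.28 and 0.15 ± 0.061 (SD, n = 2 pairs) at their brightest probe. In the nuclear complex, the corepressor Ncor1 had 0.21 ± 0.20 and the coactivator Maml2 0.15 ± 0.018. With the tested probes of a gene averaged, Aph1b was at 0.051 and Ncor1 at 0.052. Among inhibitors and turnover factors, the Deltex ubiquitin ligases Dtx1 and Dtx3l had -0.22 ± 0.084 and 0.19 ± 0.076. The 11 tested genes of the list of other targets spanned -0.33 to 0.41, with Bhlhe40, a helix-loop-helix repressor, at -0.33 ± 0.27. Hes5, a HES target of neural progenitors, was at 0.41 ± 1.80, with opposite signs in the 2 pairs.

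**Figure D3:**
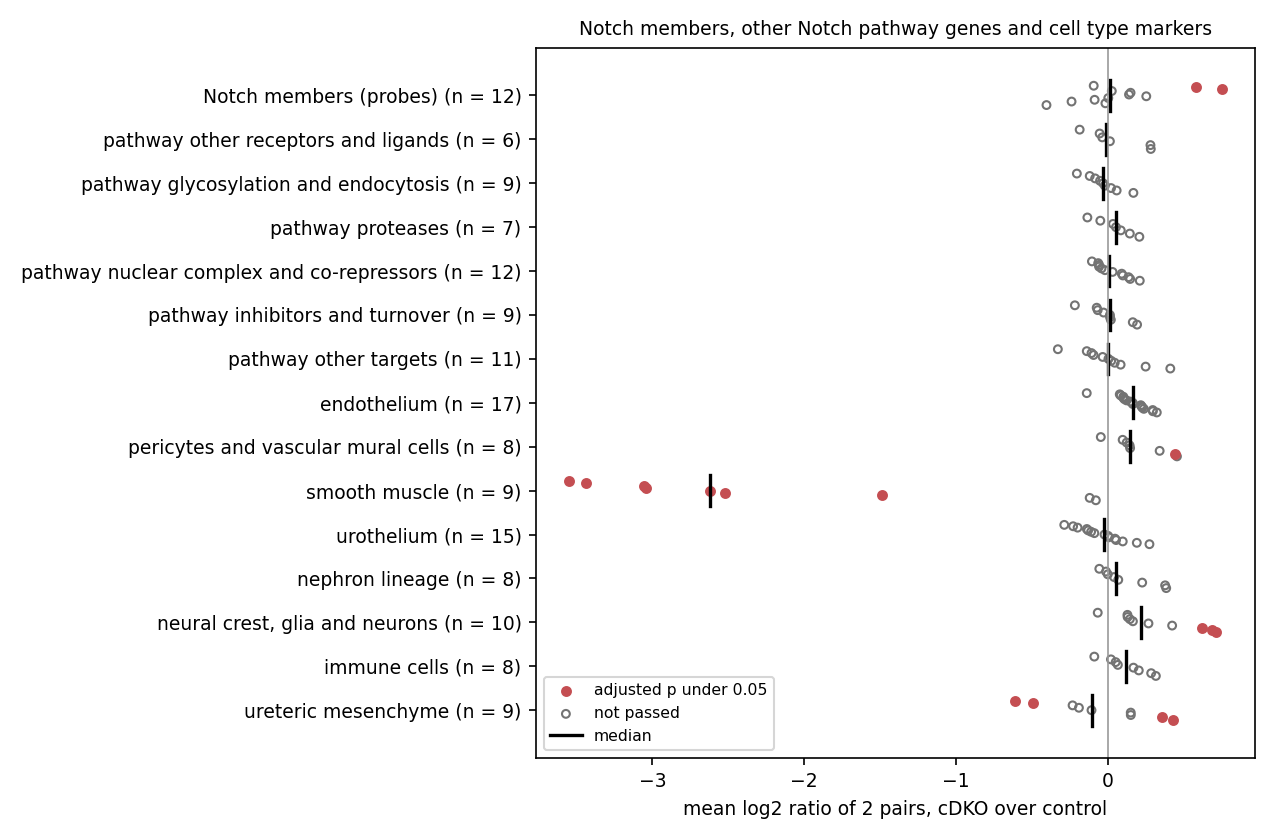
Mean log2 ratio of labelled cDKO over control over 2 pairs (x axis) for the 12 Notch probes, 6 lists of other Notch pathway genes and 8 lists of cell type markers, 1 point a gene at its brightest tested probe. Filled points passed an adjusted p of 0.05 and black lines are medians. Hey2 and Heyl are the filled Notch points, and 0 of the 54 other pathway genes are filled.

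Cell types that carry Notch genes were measured on the same arrays. In whole ureters a change in the number of cells of a type and a change in RNA per cell cannot be told apart. Of 17 tested endothelial markers 0 passed in limma, where 3.77% of all probes tested passed, and 7 had an unadjusted p under 0.05. The list's median log2 ratio was 0.16, and 14 of the 17 were positive in both pairs, against 27.6% of all probes tested, of which 13.8% had an unadjusted p under 0.05. Among the 17 were Kdr, a VEGF receptor, at 0.30 ± 0.094 (SD, n = 2 pairs) and Egfl7 at 0.32 ± 0.75. The list's mean log2 intensity was 13.31 and 13.41 in the female and male labelled cDKO RNAs, against 13.21 and 13.19 in control RNAs. Erg had a probe but was too dim to be tested.

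Of 8 markers of pericytes and vascular mural cells 1 rose, 0 fell and 7 were positive in both pairs. Of all probes tested, 1.85% rose, 1.92% fell and 27.6% were positive in both pairs. The one marker that rose was Kcnj8, a potassium channel subunit of pericytes, at 0.44 ± 0.043 (SD, n = 2 pairs, adjusted p = 0.0188), a call that ended with median centring, the scanner software's processed signals and the deposited table. The list's median was 0.15, and its mean log2 intensity was 11.51 and 11.50 in the female and male labelled cDKO RNAs, against 11.33 and 11.25 in control RNAs. The part of these cells in the Hey2 and Heyl values was not tested.

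Smooth muscle markers moved the other way from Hey2 and Heyl. Of 9 tested, 7 fell and 0 rose, against 1.92% falling and 1.85% rising over all probes tested. Actg2, the smooth muscle gamma actin, was at -3.55 ± 0.36 (SD, n = 2 pairs). The myosin heavy chain Myh11 was at -3.44 ± 0.15 and the calponin Cnn1 at -3.05 ± 0.27. The list's mean log2 intensity was 11.07 and 11.10 in the female and male labelled cDKO RNAs, against 13.18 and 13.41 in control RNAs. Of 10 markers of peripheral nerves and their neural crest precursors, 3 rose and 0 fell, where 1.85% of all probes tested rose and 1.92% fell. Fabp7, a glial fatty-acid-binding protein, was at 0.71 ± 0.023 and the neuronal intermediate filament gene Prph at 0.69 ± 0.071. Dbh, an enzyme of noradrenaline synthesis, was at 0.62 ± 0.32. The mean log2 intensity of the 10 markers was 10.54 and 10.74 in the female and male labelled cDKO RNAs, against 10.26 and 10.38 in control RNAs.

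Urothelium, immune cells and the nephron lineage had no called marker in the reported fit, where 3.77% of all probes tested passed. Under alternatives Lyz2 was called in 3 of 13, and Ptprc (medians of pixels) and Upk3a (intensity trend) in 1 each. The 15 urothelial markers had a median of -0.022, and 5 had an unadjusted p under 0.05, against 13.8% of all probes tested. Among the urothelial markers were Upk1b at -0.29 ± 0.15 and Upk3a at 0.27 ± 0.041 (SD, n = 2 pairs). The 8 immune markers had a median of 0.12 (4 with an unadjusted p under 0.05), with Lyz2 at 0.32 ± 0.00071 and Ptprc at 0.29 ± 0.012. The 8 tested nephron markers had a median of 0.055 (1 with an unadjusted p under 0.05). In the male pair their median was 0.098. Six2 was at 1.11 there and Wt1 at 0.79, while the other tested nephron markers lay between -0.062 (Lhx1) and 0.17 (Pax8). The part of nephron cells in the Dll1 and Dll4 values was not tested. Of 9 genes of the ureteric mesenchyme 2 rose and 2 fell, where 1.85% of all probes tested rose and 1.92% fell. Among the called genes were the forkhead genes Foxf2 at -0.61 ± 0.0014 and Foxf1 at -0.49 ± 0.11, and Osr1 at 0.43 ± 0.11. The calls of Dbh, Foxf1 and Osr1 ended under the same alternatives as that of Kcnj8. Tbx18, the locus of the Cre driver and a defining gene of this tissue, had a log2 intensity of 14.13 and 14.29 in the labelled cDKO RNAs, against 13.98 and 14.14 in control RNAs.

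Hey2 was called under each of 13 alternative ways to process and test these arrays, and Heyl under 12 of them. All 13 reuse the same 2 arrays, so they are not independent of each other. With median centring Heyl passed only narrowly (limma, adjusted p = 0.0491). Jag1 and Notch2 probe 1 were called under 0 of the 13, and Notch2 probe 2 under 0 of the 11 that gave it a value of its own. The adjusted p ranged from 0.000429 to 0.0250 for Hey2, from 0.00242 to 0.0565 for Heyl, from 0.0648 to 0.490 for Jag1 and from 0.0692 to 0.827 for Notch2 probe 1.

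**Figure D4:**
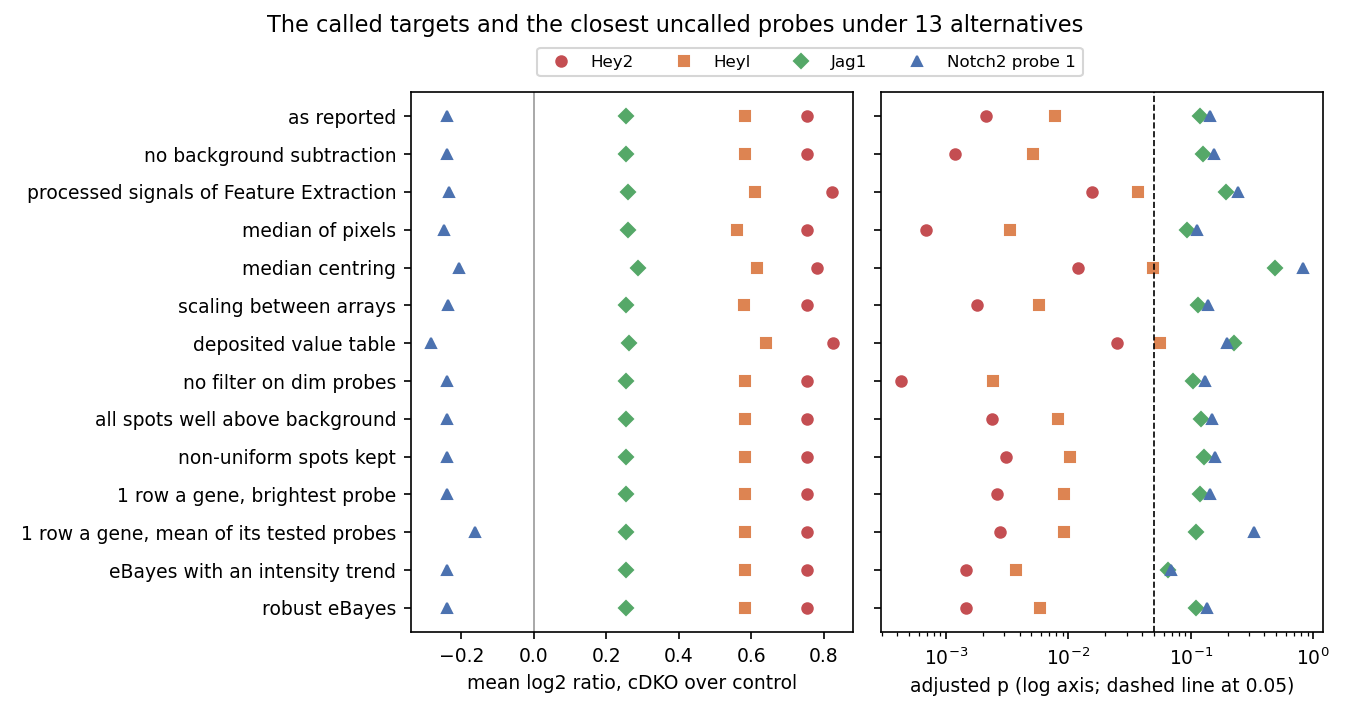
Mean log2 ratio of labelled cDKO over control (left) and adjusted p from limma (right, log axis) of 4 probes under the reported setting and 13 alternatives, listed down the page. Hey2 lies left of the dashed line at 0.05 throughout and Heyl crosses it with the deposited value table, while Jag1 and Notch2 probe 1 stay to its right.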

How the data were processed

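Feature Extraction 10.7.3.1 is the scanner software named in the submitters' processing notes. The deposited scanner files hold each spot's raw intensity, its local background, and a processed intensity after background subtraction and LOWESS dye normalization, per the file headers. The deposited value table holds other values, 1 signed fold per probe and array. The sources used here do not say how it was computed. Its log2 values correlated at 0.965 and 0.970 with those of the scanner files over 24302 probes above background in all spots. Over all 39396 probes the correlations were 0.903 and 0.915, and 33.7% and 34.1% of the deposited folds were exactly 1. The correlations settled the direction of the deposited table, but its floor and centring stay unknown.

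Mean intensities were corrected with normexp (offset 50) and normalized by loess within arrays in limma 3.58.1 (R 4.3.3), control spots and non-uniform spots (186 and 223) having weight 0. Ratios were averaged over the 4 spots of each probe and turned to labelled cDKO over control. Levels are per channel after Aquantile scaling. A probe was tested where over 0.5 of its spots were well above background in both RNAs of a genotype. The fit (lmFit, eBayes, Benjamini-Hochberg over 25934 probes) used 5.63 prior degrees of freedom beside 1 residual, so the spread pooled over probes weighs most in each p-value. Arrays give no counts, so their number limits the precision.

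RefSeq accessions (GRCm38.p6) named 28328 probes. Members and lists were chosen with earlier results of these data known. Named were all member probes, Tbx2, Tbx3, Tbx18, the called genes of each pathway list (else the 2 with the largest change) and up to 3 called genes of each marker list (else 2). Protein sequences were not analysed here. The fit was tested on simulated data. Alternatives changed background, signal, normalization, filter, outlier spots, probe joining and variance model, or left out a replicate.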

Additional observations from a re-analysis of the deposited data

Results flagged for a closer look

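The values in this part differed in sign between the pairs. With 1 pair a sex these differences were not tested, and dye orientation changes with sex. Among the Notch probes, the difference in log2 ratio (male minus female pair) was -0.30 for Hes1, -0.16 for Hey1, 0.13 for Notch3, 0.19 for Notch2 probe 2 and 0.12 for Notch1 probe 2. Among other genes it was 2.55 for Hes5, at -0.86 in the female pair, against 1.69 for males, 1.44 for Six2, 1.06 for Egfl7, 0.82 for Wt1 and 0.64 for Dlk1. Among list medians it was 0.18 for other Notch receptors and ligands, 0.081 for the nuclear complex, -0.015 for inhibitors and turnover, 0.068 for all other pathway genes, 0.14 for the nephron lineage and -0.23 for the ureteric mesenchyme.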

How the results depend on the processing

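Every value is a ratio within a pair, so the reported fit is the paired one, and no unpaired fit was run. Of 152 values of Notch probes that had a test under an alternative, 150 kept their direction and their side of the threshold. The deposited value table ended the call of Heyl, leaving 1 Notch probe higher, and gave 178 probes higher and 197 lower in all. Processed signals gave 305 and 302, with 1 other pathway gene higher (Dner, at 0.51), and median centring gave 170 and 199. The cause was not tested. With scaling between arrays Notch3 was at -0.000047. With 1 replicate left out there is a value but no test and no count of calls; without replicate 1 or 2, Notch3 ranged from -0.064 to 0.070, Hey1 from -0.052 to 0.11, Hes1 from -0.24 to 0.059, Notch2 probe 2 from -0.18 to 0.0093 and Notch1 probe 2 from -0.078 to 0.046. The same held for Dlk1 (-0.040 to 0.60), Hes5 (-0.86 to 1.69), Egfl7 (-0.20 to 0.85), Six2 (-0.34 to 1.11) and Wt1 (-0.032 to 0.79).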
